A study of Mus musculus with 11 samples.

Results

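The proteoglycans and elastic matrix genes are 10 non-collagen genes of the extracellular matrix. They were chosen by name, with earlier results of these data known: Dcn, Lum, Ogn, Bgn, Fmod, Postn, Eln, Fbn1, Fbn2 and Emilin3. Of the 10, 9 had a named probe set, among 18193 genes named on the array. Fbn1, which encodes fibrillin-1, was not analysed here. The 9 genes were read by 20 probe sets, the array's units of measurement, and 19 of these passed the filter on low values.

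Expression was measured on 11 one-colour arrays of wild-type CD-1 mouse tissue at E15.5 (Theiler stage 23), an outbred stock, with no treatment and no altered allele in any group. Tissue was cut out by laser capture microdissection. The ureter gave 3 arrays of its smooth muscle (USM) and 3 of its lining, the urothelium (URO). The kidney gave 3 arrays of early proximal tubule (EPT) and 2 arrays of cortical collecting duct (CCD). Each sample pooled approximately 50 sections from 5 kidneys, and its RNA was amplified in 2 rounds. Whether the pools of a compartment came from separate animals is not given in the sources used here, so p-values measure only the spread between these samples, which may be partly technical.

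Small leucine-rich proteoglycans are secreted proteins built of leucine-rich repeats that bind collagen fibrils and carry glycosaminoglycan chains. Decorin (Dcn), biglycan (Bgn), lumican (Lum), fibromodulin (Fmod) and osteoglycin (Ogn) belong to this family. Elastic fibres have a core of elastin (Eln) laid on microfibrils of fibrillins such as fibrillin-2 (Fbn2), which is prominent in the embryo. Emilins are glycoproteins associated with these fibres, and periostin (Postn) is a matricellular protein that binds collagen and integrins. Fibroblasts and smooth muscle cells are the usual sources of all these proteins.

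Values below are log2(signal + 55), called log2 signal, where a signal of 0 would be 5.78. The added 55 understates the change of dim genes, and levels of different probe sets are not compared with each other. All arrays had a trimmed mean of 1500, their median signals lay between 247.1 and 400.6, and precision is limited by how few arrays there are. A date-like part of the labels, of unstated meaning, splits the arrays into 4 label batches. Each marker sum was highest in its own compartment but was not confined to it. The 12 smooth muscle markers summed to a signal of 401372 to 554574 in ureteral smooth muscle, the 8 collecting duct markers to 92882 to 100275 in cortical collecting duct, the 8 proximal tubule markers to 128130 to 204439 in proximal tubule, and the 8 urothelial markers to 42696 to 121020 in urothelium. In urothelium the smooth muscle markers summed to 28235 to 129131, the collecting duct markers to 23044 to 39551 and the proximal tubule markers to 2701 to 11960. Urothelial markers summed to 15324 to 15377 in collecting duct.

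In ureteral smooth muscle, 7 of the 9 measured matrix genes exceeded the average over the remaining 3 compartments. These were Dcn, Lum, Bgn, Postn, Eln, Fbn2 and Emilin3, called at a limma adjusted p under 0.05 and a log2 difference of at least 1. In the same comparison 6.05% of the 13614 genes tested were called higher. The median difference was 2.53 over the 9 genes and -0.07 over all genes tested. The same 7 genes had all 3 muscle arrays above all 8 others, as 5.21% of genes tested did. Fmod went another way and was highest in urothelium, and Ogn did not pass the test. By limma's moderated F over the 4 compartments, 8 of the 9 genes differed, all but Ogn, against 20.1% of genes tested. Eln was at the threshold there (adjusted p = 0.0465) and lost this call in 17 of 22 alternatives, and the count was 7 with any single array left out.

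**Figure D1:**
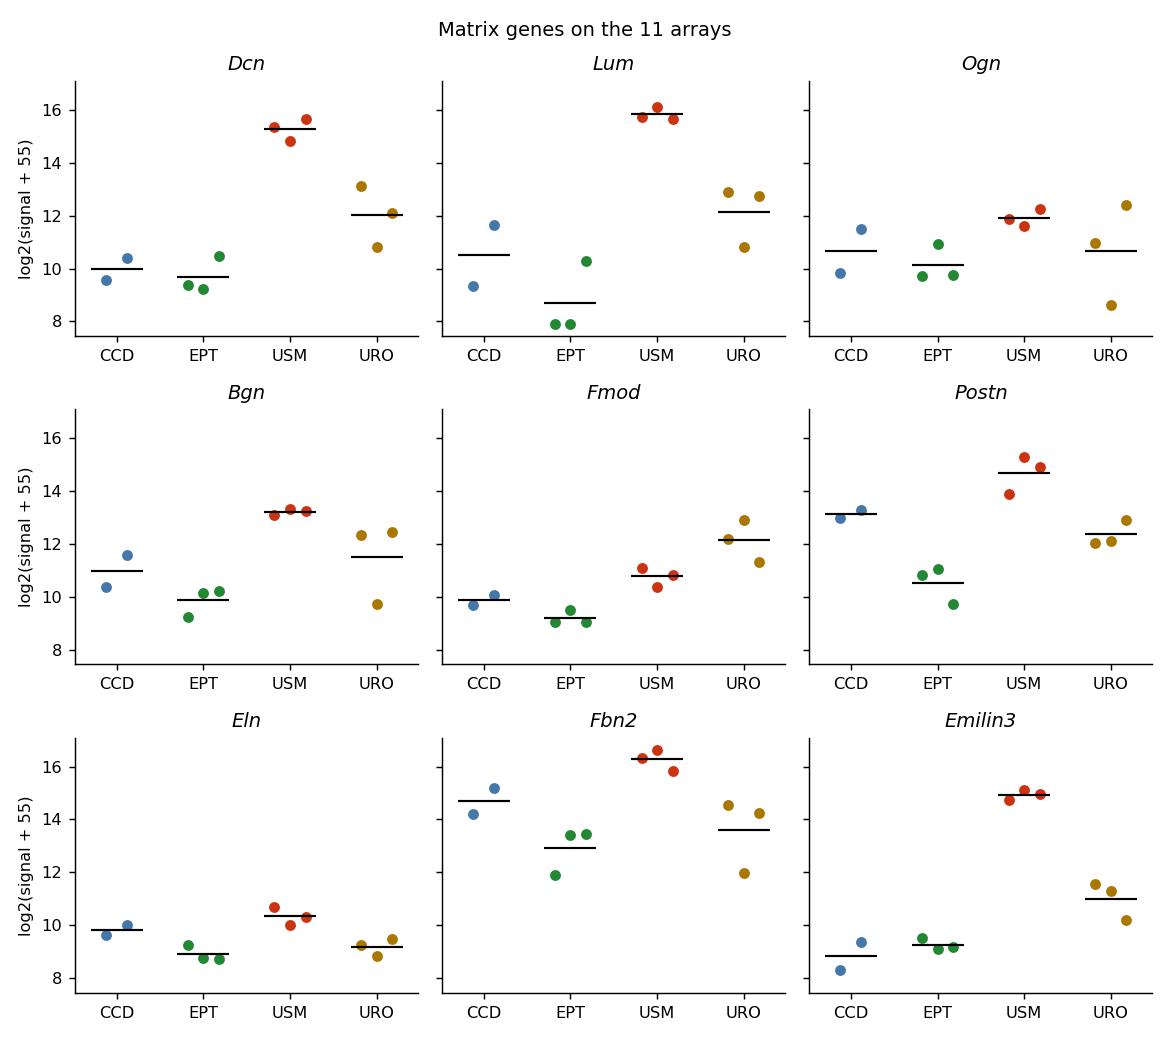
Log2(signal + 55) of the 9 measured matrix genes on each array, read from the probe set with the highest mean of each gene; points are arrays, in replicate order from left to right, and black lines are compartment means. Muscle arrays lie above all others for 7 genes, and urothelium arrays lie above all others for Fmod.

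Among the leucine-rich proteoglycans, lumican, which organises collagen fibrils and can carry keratan sulfate, showed the widest differences. Its log2 signal was 15.72, 16.08 and 15.66 in the 3 muscle arrays. It was 12.87, 10.80 and 12.75 in urothelium, 9.33 and 11.66 in collecting duct, and 7.92, 7.89 and 10.28 in proximal tubule. The muscle arrays were close together and far above the rest, whereas the arrays of each other compartment were spread widely. Lum was higher in muscle by 5.38 ± 0.63 (SE, n = 3 against 8 arrays, limma adjusted p = 7.18e-05). Its difference from proximal tubule was 7.12 ± 0.75, the widest of the 9 genes in that comparison.

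Decorin, which binds collagen and transforming growth factor beta, followed the same order of compartments. Its log2 signal was 15.34, 14.83 and 15.66 in muscle and 13.12, 10.81 and 12.09 in urothelium. In the kidney it was 9.57 and 10.39 in collecting duct and 9.37, 9.23 and 10.47 in proximal tubule. All urothelium arrays lay between the muscle arrays and the kidney arrays. Dcn was higher in muscle by 4.72 ± 0.47 (limma adjusted p = 2.17e-05), and was also higher in muscle than in urothelium, by 3.27 ± 0.56 (adjusted p = 0.00266). A second, dimmer Dcn probe set, 1441506_at, read 11.26, 11.79 and 12.31 in muscle and was higher there by 3.32 ± 0.54 (adjusted p = 0.00137 among all kept probe sets). In urothelium that probe set read 8.09, 7.27 and 8.52, below its range of 8.55 to 9.53 in collecting duct. The 2 probe sets therefore differ on urothelium: its difference from proximal tubule was 2.32 ± 0.58 (limma adjusted p = 0.027) by the brighter and -0.42 ± 0.65 (limma adjusted p = 0.747) by the dimmer, both among all kept probe sets.

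Biglycan, the closest relative of decorin, read 13.09, 13.33 and 13.23 in muscle. It read 12.35, 9.72 and 12.45 in urothelium, 10.38 and 11.58 in collecting duct, and 9.24, 10.15 and 10.22 in proximal tubule. Urothelium replicate 2 lay far below its fellows and inside the range of proximal tubule, while replicates 1 and 3 lay above every kidney array. Bgn was higher in muscle than in the mean of the rest by 2.43 ± 0.53 (limma adjusted p = 0.00685). Against urothelium alone the difference was 1.71 ± 0.64 (95% interval 0.33 to 3.09, adjusted p = 0.139) and was not called. All 3 Bgn probe sets had their muscle arrays above the rest.

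Osteoglycin, a small proteoglycan of bone and soft connective tissue, read 11.87, 11.59 and 12.25 in muscle and 10.96, 8.64 and 12.41 in urothelium. It read 9.82 and 11.51 in collecting duct and 9.73, 10.94 and 9.75 in proximal tubule. Urothelium replicate 3 was the highest of all arrays and replicate 2 the lowest, so the groups overlapped. The difference of muscle from the rest was 1.41 ± 0.64 (95% interval 0.03 to 2.79, limma adjusted p = 0.176). The other Ogn probe set, 1419662_at, read 10.20, 10.67 and 10.54 in muscle and 10.20 in urothelium replicate 3, and gave 2.07 ± 0.60 (adjusted p = 0.0421 among all kept probe sets), which is called.

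Fibromodulin, a collagen-binding relative of lumican, was the gene that was not highest in muscle. It read 12.19, 12.91 and 11.33 in urothelium and 11.11, 10.39 and 10.83 in muscle. It read 9.69 and 10.07 in collecting duct and 9.06, 9.50 and 9.06 in proximal tubule. The urothelium arrays lay above all 8 others, as 2.17% of genes tested did, and the muscle arrays lay above all kidney arrays. Fmod was higher in urothelium than in proximal tubule by 2.94 ± 0.43 (limma adjusted p = 0.000737). Its difference of urothelium from collecting duct was 2.27 ± 0.49 (adjusted p = 0.0818), and that of muscle from urothelium -1.37 ± 0.43 (95% interval -2.30 to -0.43, adjusted p = 0.0759), neither of them called. Muscle was higher than proximal tubule by 1.57 ± 0.43 (adjusted p = 0.0203), a call lost in 8 of 23 alternatives. Among these were the mean of probe sets (1.01), no x, s or a probe sets (0.79), and leaving out proximal tubule replicate 1 or 3 (1.5 each) or muscle replicate 1 or 3 (1.40 and 1.55).

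All 6 Fmod probe sets had their highest mean in urothelium, in 4 of them the urothelium arrays did not overlap with the rest, and the same number was called higher there than in proximal tubule. Of the 6, 5 carry the x suffix, which marks probes that can also match other transcripts. The remaining one, 1415939_at, read 10.36, 9.39 and 8.81 in urothelium and 8.79, 9.02 and 8.12 in muscle, so its groups overlapped. It read 8.82 and 8.49 in collecting duct and 7.67, 7.40 and 8.50 in proximal tubule. Urothelium exceeded proximal tubule by 1.66 ± 0.49 on it (limma adjusted p = 0.0549 among all kept probe sets), and its moderated F had an adjusted p of 0.139. In a fit without the x, s and a probe sets, where 1415939_at stands for Fmod, the same difference of 1.66 had an adjusted p of 0.0414 and was called, while the F was not (adjusted p = 0.112). The call of urothelium over proximal tubule on that probe set thus lies at the threshold and turns on which probe sets are fitted with it.

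**Figure D2:**
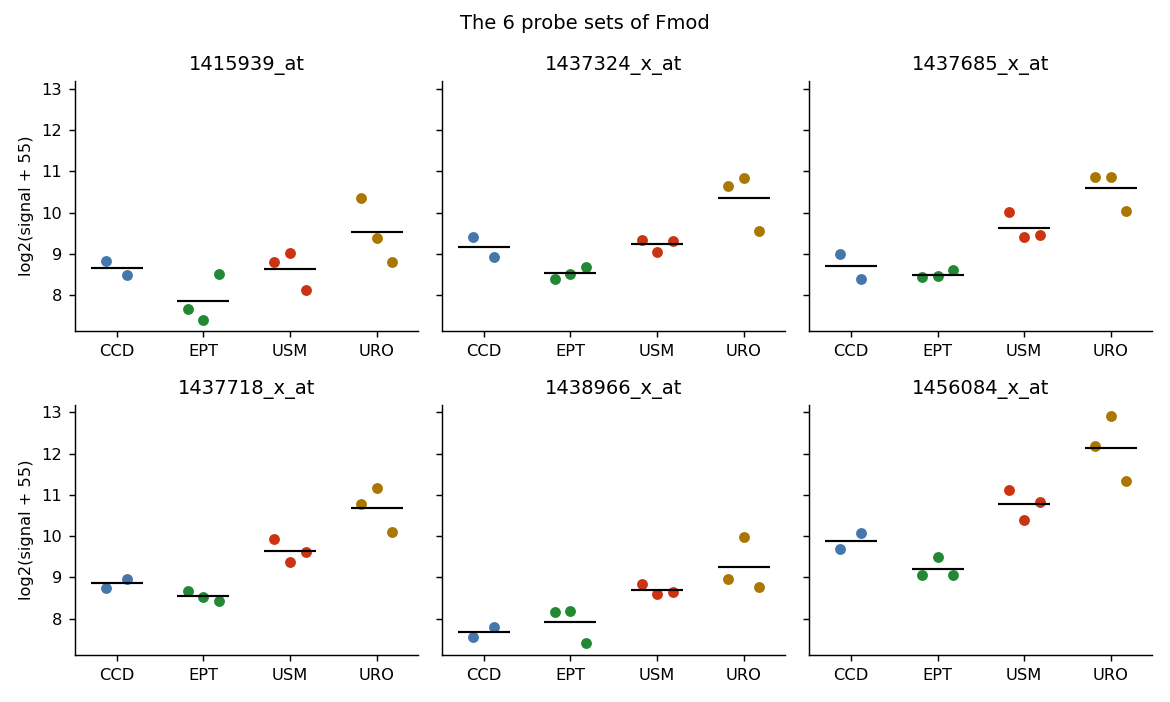
Log2(signal + 55) of the 6 Fmod probe sets on each array; points are arrays in replicate order and black lines are compartment means. The mean is highest in urothelium on every probe set, and on 1415939_at the urothelium values of 10.36, 9.39 and 8.81 overlap with muscle.

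Promoters of 4 of the 9 measured genes were read from the RefSeq promoter table (GRCm38.p6), and Fbn2 was left out of this reading. The 4 are the others with an entry there, since Dcn, Lum, Eln and Emilin3 had none. Of the 4, Ogn, Bgn and Postn had their highest mean in muscle and Fmod in urothelium. Each sequence runs 5′ to 3′ on the plus strand, from 250 bases before the start site to 50 after it. Capitals mark TATAAA and the E-box CANNTG, each searched on both strands. Fmod lies at chr1:134037004-134037303, Bgn at chrX:73483351-73483650, Ogn at chr13:49607765-49608064, and the downstream of the Postn starts in the table at chr3:54360857-54361156.
Fmod: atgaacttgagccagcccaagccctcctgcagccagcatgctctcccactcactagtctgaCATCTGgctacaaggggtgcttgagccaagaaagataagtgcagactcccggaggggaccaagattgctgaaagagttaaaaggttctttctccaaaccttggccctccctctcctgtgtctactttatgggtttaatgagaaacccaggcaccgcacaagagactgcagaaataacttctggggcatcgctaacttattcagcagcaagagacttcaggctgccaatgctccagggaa
Bgn: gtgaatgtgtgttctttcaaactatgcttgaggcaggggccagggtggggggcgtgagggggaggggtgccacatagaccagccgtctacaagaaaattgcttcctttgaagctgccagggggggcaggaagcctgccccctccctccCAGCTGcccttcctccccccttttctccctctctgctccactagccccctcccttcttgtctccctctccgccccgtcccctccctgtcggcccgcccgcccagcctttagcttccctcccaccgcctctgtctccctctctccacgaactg
Ogn: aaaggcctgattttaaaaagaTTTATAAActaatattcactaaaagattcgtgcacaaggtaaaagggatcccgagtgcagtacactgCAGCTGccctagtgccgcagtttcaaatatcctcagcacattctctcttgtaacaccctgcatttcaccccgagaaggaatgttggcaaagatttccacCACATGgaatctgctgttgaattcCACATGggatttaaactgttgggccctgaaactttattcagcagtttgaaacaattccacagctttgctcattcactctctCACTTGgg
Postn: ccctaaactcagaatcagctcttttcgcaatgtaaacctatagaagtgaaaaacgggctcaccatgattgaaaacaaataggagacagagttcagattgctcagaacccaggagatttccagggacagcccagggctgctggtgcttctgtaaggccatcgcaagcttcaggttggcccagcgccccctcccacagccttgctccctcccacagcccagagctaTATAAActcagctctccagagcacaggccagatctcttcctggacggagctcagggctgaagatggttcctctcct

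These promoters shared little. The Postn sequence held TATAAA at -26 from the start. Ogn held overlapping matches to it on both strands, at -229 and -227 from the start, and 13.6% of 32851 RefSeq promoters of this length held the motif. Ogn had 4 E-boxes, Bgn and Fmod 1 each and the Postn window none, against 72.3% of promoters with at least 1. Bgn alone held GC boxes (GGGCGG, both strands), 3 of them, at -34, -10 and -6 from the start, against 35.7% of promoters, and its GC content was 63.7% against a median of 52.7%. The CArG box, the element bound by serum response factor, was in none of the 4 windows and in 1.6% of promoters. A match is only a match of letters, and the absence of one says nothing about a factor beyond these windows.

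Periostin, the matricellular member, read 13.90, 15.27 and 14.91 in muscle. It read 13 and 13.28 in collecting duct, 12.03, 12.13 and 12.92 in urothelium and 10.83, 11.06 and 9.74 in proximal tubule. Here collecting duct stood second, above every urothelium array, and proximal tubule was lowest without overlap. Postn was higher in muscle than in the mean of the rest by 2.68 ± 0.40 (limma adjusted p = 0.000461) and higher than in urothelium by 2.33 ± 0.48 (adjusted p = 0.00791). The difference of muscle from collecting duct was 1.55 ± 0.53 (95% interval 0.40 to 2.70, adjusted p = 0.102). Collecting duct exceeded proximal tubule by 2.59 ± 0.53 (adjusted p = 0.0106). Postn was the 1 matrix gene called in that comparison, where 2.19% of genes tested were called higher, and the call was lost without either collecting duct array (2.73 and 2.46).

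Of the elastic fibre genes, Emilin3 was the most sharply set apart. This gene of the emilin family read 14.75, 15.10 and 14.97 in muscle and 11.55, 11.29 and 10.20 in urothelium. It read 8.31 and 9.36 in collecting duct and 9.51, 9.12 and 9.19 in proximal tubule. The spread among muscle arrays was small (14.94 ± 0.18, SD, n = 3), and every urothelium array lay above every kidney array. Emilin3 was higher in muscle by 5.24 ± 0.36 (limma adjusted p = 2.97e-06) and higher than in urothelium by 3.93 ± 0.44 (adjusted p = 0.000122). It was also higher in urothelium than in proximal tubule, by 1.74 ± 0.44 (adjusted p = 0.0204).

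Fibrillin-2, the fibrillin of embryonic microfibrils, read 16.34, 16.64 and 15.84 in muscle. It read 14.20 and 15.19 in collecting duct, 14.55, 11.97 and 14.26 in urothelium and 11.90, 13.41 and 13.47 in proximal tubule. On its brighter probe set, read here, Fbn2 resembled Postn in the order of its means, with collecting duct second, but the collecting duct and urothelium arrays overlapped. It was higher in muscle by 2.53 ± 0.54 (limma adjusted p = 0.0059) and higher than in urothelium by 2.68 ± 0.65 (adjusted p = 0.0213). Without urothelium replicate 2 the latter difference was 1.86 and lost its call, as it also did without muscle replicate 1 or 2 (2.64 and 2.49). The dimmer Fbn2 probe set, 1422831_at, read 12.82, 11.93 and 13.07 in muscle and 6.71 to 10.96 elsewhere. It was called higher in muscle as well (3.62 ± 0.76, limma adjusted p = 0.00742 among all kept probe sets). Its mean was 9.16 in collecting duct and 9.22 in urothelium, so collecting duct did not stand second on it.

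Elastin, the core protein of elastic fibres, had the smallest called difference. It read 10.71, 10.02 and 10.32 in muscle and 9.64 and 10.01 in collecting duct. It read 9.27, 8.86 and 9.48 in urothelium and 9.26, 8.78 and 8.75 in proximal tubule. The lowest muscle array and the highest collecting duct array were almost equal, and the 3 muscle arrays lay just above the rest. Eln was higher in muscle by 1.03 ± 0.31 (limma adjusted p = 0.0369), a difference at the threshold of size, and 11 of 22 alternatives lost the call. The other Eln probe set, 1420854_at, stayed at 6.19 to 7.47, below the median of every array, and was not tested.

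Compartment by compartment, muscle differed most from proximal tubule, where 8 of the 9 genes were called higher (8.06% of genes tested), all but Ogn. Against urothelium 5 were called higher (2.93% of genes tested): Dcn, Lum, Postn, Fbn2 and Emilin3. Against collecting duct 3 were called higher (3.36% of genes tested): Dcn by 5.30 ± 0.63, Lum by 5.33 ± 0.84 and Emilin3 by 6.11 ± 0.49, with limma adjusted p of 0.000187, 0.00126 and 2.52e-05. These comparisons share the muscle arrays and are not independent of each other.

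**Figure D3:**
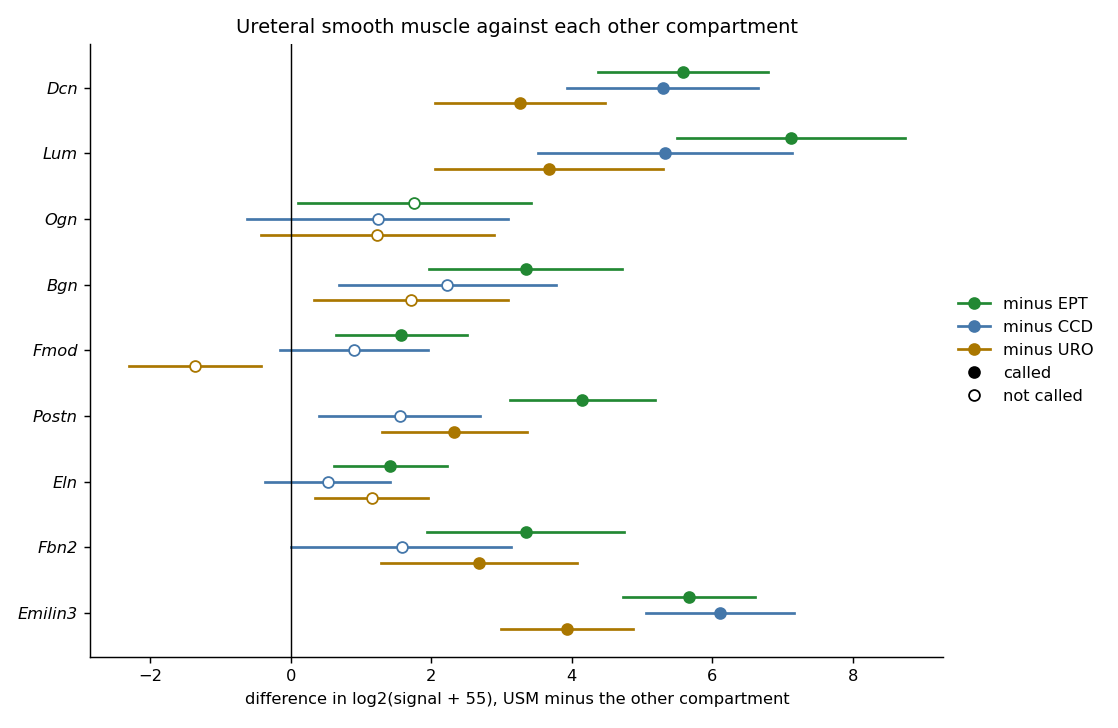
Difference in log2(signal + 55) of ureteral smooth muscle from each other compartment for the 9 measured genes, with 95% intervals from the limma fit; filled points are called. Dcn, Lum and Emilin3 are called in all 3 comparisons, and Fmod alone has a value below 0, -1.37 against urothelium.

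Between urothelium and proximal tubule, 5 genes were called higher in urothelium (5.02% of genes tested). They were Lum by 3.44 ± 0.75, Fmod by 2.94 ± 0.43, Dcn by 2.32 ± 0.56, Postn by 1.81 ± 0.48 and Emilin3 by 1.74 ± 0.44, with limma adjusted p of 0.0097, 0.000737, 0.0175, 0.0259 and 0.0204. No label batch holds both compartments, and with label batch as a fixed block 0 of the 5 were called, while their differences were 5.05, 2.58, 2.20, 2.48 and 2.21. The count was 2 without proximal tubule replicate 2. Between urothelium and collecting duct limma called 0 of the 9 genes (0.162% of genes tested were called higher there and 0.0955% lower). At an unadjusted p under 0.05, 3 were higher in urothelium and 0 lower, with no share of all genes given at that threshold. The largest of these differences were Fmod at 2.27 ± 0.49 and Emilin3 at 2.18 ± 0.49 (adjusted p = 0.0848), and Postn, Eln and Fbn2 had means lower in urothelium by amounts that did not pass the test (-0.78 ± 0.53, -0.62 ± 0.41 and -1.10 ± 0.73).

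Mesenchymal markers moved with most of these genes. The 14 fibroblast and mesenchyme markers summed to a signal of 456972 to 576014 in muscle, 81369 to 165742 in urothelium, 60334 to 122351 in collecting duct and 46539 to 87910 in proximal tubule. The brightest of them, Col3a1, weighs most in these sums. Of the 14, 12 were called higher in muscle than in the mean of the rest (6.05% of genes tested), and Pdgfrb and Foxd1 were not called. The mean log2 signal of the 14 markers was 13.32 to 13.47 in muscle and 10.40 to 12.07 in urothelium. For the same markers it was 10.33 to 11.38 in collecting duct and 10.12 to 11.03 in proximal tubule. Their summed signal in urothelium was 165742, 81369 and 157874 in replicates 1, 2 and 3, and replicate 2 was also the lowest urothelium array for Dcn, Lum, Ogn, Bgn, Eln and Fbn2. None of the 14 was below its array's median in urothelium replicates 1 and 3, and 3 were in replicate 2. The ratio of 3′ to 5′ signal of the Gapdh control, a sign of RNA quality after amplification, was 55.3 in urothelium replicate 2. It was 6.79 at the lowest of the 11. By actin, however, urothelium replicate 2 stood at 5.43, near the low end of a range from 5.07 to 13.52 over all arrays. The controls thus place this array differently, and the part of RNA quality in these values was not tested. The 12 smooth muscle markers summed to 129131, 57792 and 28235 in urothelium, in another order, and Emilin3 (11.55, 11.29 and 10.20) had its values in that order. In such bulk samples fewer cells of a type and less RNA per cell cannot be told apart, and the part of carried-over mesenchyme in the urothelial values was not tested.

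Fmod, on most of its probe sets, and Postn departed from the marker sums. On 4 of its 6 probe sets Fmod was highest in urothelium replicate 2, the array with the lowest mesenchymal marker sum of that compartment. Replicate 1 was highest on 1415939_at (10.36 against 9.39) and, by little, on 1437685_x_at (10.87 against 10.85). Postn read 13 in collecting duct replicate 1, where the mesenchymal markers summed to 60334, inside the range of proximal tubule, whose Postn values ended at 11.06. In the same array 5 of the 14 mesenchymal markers and 10 of the 12 smooth muscle markers were below the array's median. Endothelial markers ranged over 4817 to 12795 across all arrays, with every compartment overlapping in its sum.

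**Figure D4:**
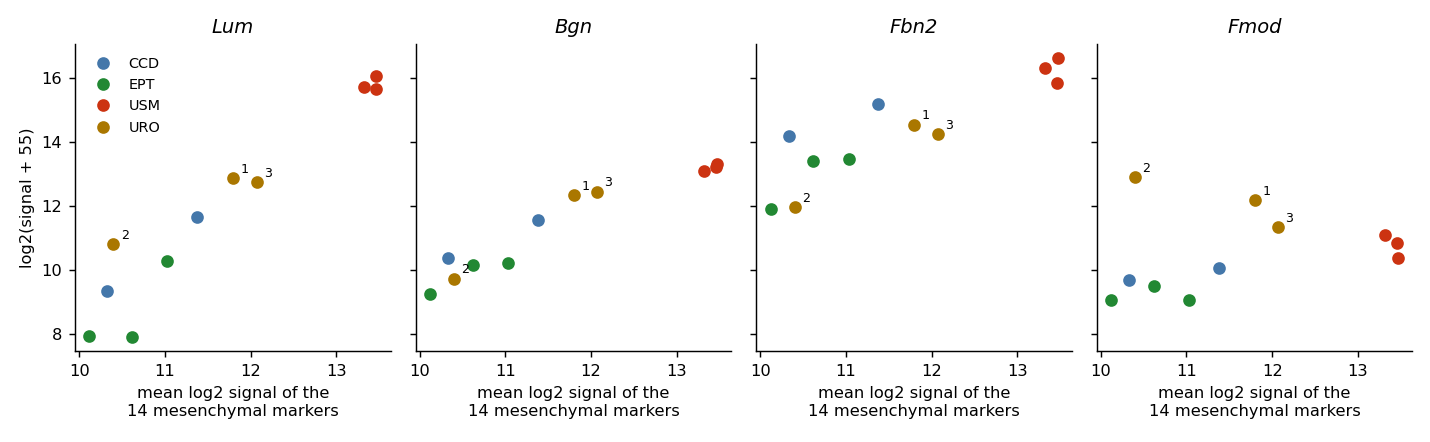
Log2(signal + 55) of Lum, Bgn, Fbn2 and Fmod on each array against the mean log2 signal of the 14 fibroblast and mesenchyme markers on that array; urothelium replicates are numbered. Lum and Bgn rise with the markers, and Fmod, read by 1456084_x_at, is highest in urothelium replicate 2, at a marker mean of 10.40.

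Within label batches the called differences kept their direction where a batch held both compartments, which none did for urothelium and either kidney compartment. Label batch 1 held muscle replicate 3 with urothelium replicates 2 and 3, and batch 2 held replicate 1 of both. In these, muscle minus urothelium was 4.20 and 2.23 for Dcn, 3.89 and 2.86 for Lum, 4.23 and 3.20 for Emilin3, and -1.29 and -1.08 for Fmod. For Bgn it was 2.14 and 0.74, and for Fbn2 2.72 and 1.78. In batch 4, with 1 array each of muscle, collecting duct and proximal tubule, muscle exceeded collecting duct by 5.25 for Dcn, 6.75 for Lum and 6.79 for Emilin3. Collecting duct minus proximal tubule for Postn was 2.87 in batch 3 and 2.17 in batch 4. These values rest on 1 or 2 arrays a side and have no test.

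The leucine-rich proteoglycan genes lie in clusters, so their genome neighbours of the same family were also read. Dcn and Lum are adjacent on chromosome 10, next to Kera (keratocan) and Epyc (epiphycan). Kera read 5.89 to 8.03 and Epyc 6.08 to 8.10 over the 11 arrays, each below the median of every array. Ogn is next to Omd, Aspn and Ecm2 on chromosome 13. Omd and Ecm2 were below the median of every array, and Aspn (asporin) was above it on 1, at 8.46 in muscle replicate 1. Fmod is next to Prelp on chromosome 1, followed by Optc. Of these 7 neighbours Prelp, another collagen-binding member, passed the filter, and only by way of 2 muscle arrays, so its difference is given with no test. Prelp read 7.95, 9.56 and 9.55 in muscle and 6.12 to 8.42 elsewhere. The neighbours of Dcn, Lum and Ogn thus stayed near or below the array medians in muscle.

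Other matrix genes were read from lists. Of 13 other small leucine-rich proteoglycans 11 had a probe set and 3 passed the filter, Prelp among them, so no count of calls is read from that list. Of 24 other elastic fibre and microfibril genes, 22 had a probe set and 21 passed the filter. Of those, 9 were called higher in muscle than in the rest (6.05% of genes tested), 1 lower (9.12%) and 11 not called, with a median of 1.11. Among the 9, Ltbp2 passed the filter only by way of muscle arrays, as Prelp did, so its call is not read. The leading genes called higher were the fibulins Fbln1 at 2.47 ± 0.49 and Fbln2 at 1.89 ± 0.40, which bridge elastic fibres and other matrix, and Emilin1 at 2.99 ± 0.60 (limma adjusted p = 0.00381, 0.0057 and 0.00408). Efemp1 (fibulin-3) was lower, by -2.00 ± 0.52 (adjusted p = 0.0177). Its muscle values of 9.88, 11.28 and 9.86 lay below 14.87 and 14.59 in collecting duct and below 13.09, 13.64 and 13.45 in urothelium. Proximal tubule was low too, at 7.30, 10.06 and 9.36, and muscle differed from it by 1.43 ± 0.62 (limma adjusted p = 0.126), which is not called.

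Of 23 other matricellular genes, 20 passed the filter, with 9 called higher (6.05% of genes tested), 0 lower (9.12%) and 11 not called. Among the 9, Tnxb was above its array's median outside muscle only in urothelium replicate 2 (8.75). It thus passed the filter by way of muscle arrays, and its call is not read. At an unadjusted p under 0.05 the list had 11 higher and 0 lower by limma, a threshold for which no share of all genes is given here. The median of the list was 1.39. Sparcl1 (hevin) was higher in muscle by 4.24 ± 0.35, the axon guidance protein Spon1 by 3.29 ± 0.36, Ccn2 (connective tissue growth factor) by 2.91 ± 0.33 and Smoc1 by 3.05 ± 0.41, with limma adjusted p from 5.77e-06 to 0.00021. Ccn2 read 13.75, 13.33 and 13.73 in muscle and 9.43 to 11.89 in the rest. Of 8 transforming growth factor beta ligands, receptors and procollagen proteinases, 6 passed the filter. Of these, 3 were called higher (6.05% of genes tested), 0 lower (9.12%) and 3 not called. At an unadjusted p under 0.05, 4 were higher and 0 lower, again without a share of all genes. The 3 called higher were the ligands Tgfb3 at 3.44 ± 0.54 and Tgfb2 at 2.55 ± 0.56 and the proteinase Bmp1 at 1.22 ± 0.37. Of the single compartments, Tgfb2 was called against proximal tubule only and Bmp1 against none.

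The proteoglycans of cell surfaces and basement membranes were read in the same comparison, in which more of all genes tested were called lower (9.12%) than higher (6.05%). Of 16 heparan sulfate proteoglycans and related genes, 15 passed the filter, with 1 called higher in muscle, 4 lower and 10 not called, and a median of -0.20. The lower ones were the basement membrane components Col18a1 at -2.50 ± 0.36 and Agrn (agrin) at -1.83 ± 0.34 and the glypicans Gpc2 at -2.33 ± 0.35 and Gpc5 at -2.12 ± 0.41, with limma adjusted p from 0.000334 to 0.00287. Agrn read 12.78, 13.53 and 13.06 in muscle and 15.37, 15.78 and 16.51 in proximal tubule. Agrn and Gpc5 were called lower in muscle against proximal tubule, but not against collecting duct or urothelium. The latter limma adjusted p were 0.0593 and 0.105 for Agrn and 0.136 and 0.207 for Gpc5. Of 13 hyaluronan, lectican and link protein genes, 12 passed, with 2 called higher, 1 lower and 9 not called. Vcan (versican), a large chondroitin sulfate proteoglycan, was higher in muscle by 2.35 ± 0.40 and the hyaluronan receptor Cd44 by 1.83 ± 0.58, whereas the hyaluronan synthase Has3 was lower by -3.53 ± 0.61 (adjusted p = 0.00118, 0.0484 and 0.00135 by limma). Has3 read 12.85, 11.96 and 11.53 in proximal tubule and 7.05, 6.50 and 6.03 in muscle. Against urothelium Has3 was not called (-1.54 ± 0.73, limma adjusted p = 0.274). Cd44 was not called against urothelium (0.73 ± 0.7, limma adjusted p = 0.657) or collecting duct (limma adjusted p = 0.0989). Of 32 genes that build glycosaminoglycan chains, 28 passed, with 5 called higher in muscle, 4 lower and 19 not called, and a median of 0.41. At an unadjusted p under 0.05, 9 were higher and 4 lower, with no share of all genes given at that threshold. The sulfotransferase Chst1 differed by 1.75 ± 0.32, while the sulfotransferase Chst15 differed by -3.40 ± 0.65 and the xylose kinase Fam20b by -1.51 ± 0.30. Against urothelium alone Chst15 was not called (-2.37 ± 0.78, limma adjusted p = 0.0854). Outside muscle, the chondroitin synthase Chsy3 was above its array's median only in collecting duct replicate 2 (9.08), and Dse only in urothelium replicate 3 (8.77). Both thus passed the filter by way of muscle arrays, and their calls among the 5 are not read.

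Across the 11 arrays, which share their compartments and label batches, the matrix genes other than Fmod correlated with each other, as a description. Over their 28 pairs Pearson's r ran from 0.50 to 0.97 with a median of 0.79, highest for Dcn with Lum. Over the 8 pairs with Fmod it ran from 0.05 to 0.45. Of 12847 other genes tested, those most like Dcn were Gata6, Hspb8 and Cavin3 (r = 0.985, 0.984 and 0.979), and those most like Lum were Rhoj, Unc5c and Cldn11 (r = 0.978, 0.973 and 0.971). Emilin3 was nearest to Pgm5 and the contractile genes Cnn1 and Tnnt2 (r = 0.984, 0.982 and 0.981), and Bgn to Oat, Pdgfra and Lhfp (r = 0.983, 0.974 and 0.970). Fbn2 was nearest to Amigo2, Igf1 and Tmem26 (r = 0.986, 0.978 and 0.974), and Postn to B3gnt5, Nfib and Pgm2 (r = 0.961, 0.956 and 0.954). For Fmod they were Prkcb, S100a6 and Enho (r = 0.990, 0.965 and 0.949). Ogn was nearest to Rarres2, Gucy1a1 and Gas1 (r = 0.950, 0.930 and 0.929), and Eln to Dmrta1, Spc25 and Tmeff2 (r = 0.930, 0.925 and 0.920).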

How the data were processed

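The deposited values are linear signal intensity values of 45101 Affymetrix probe sets on 11 arrays, made by the authors with GCOS, per the submitters' processing notes, which name no version. After trimming 2% of probe sets at either end, the mean was 1500 on all arrays, and this scaling by the authors was kept. Of the probe sets, 34945 had 1 gene symbol, 932 several, 9160 none here, and 64 were controls. Entrez identifiers matched 34741 of them to the RefSeq table of GRCm38.p6, and 0 symbols changed. Compartments came from the labels, and replicate numbers are accession order and pair nothing.

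Values were taken to log2(signal + 55), where 55 is the table's 20th percentile, rounded. A probe set was kept if above its array's median in at least 2 arrays, and the one with the highest mean stood for its gene (13614 genes). One limma fit (limma 3.58.1, R 4.3.3; 7 residual and 6.38 prior degrees of freedom) gave compartment means over all arrays, from which muscle was set against the mean of the rest, all 6 pairs were compared, and a moderated F was taken. Calls needed an absolute log2 difference of 1 or more and p under 0.05 after Benjamini-Hochberg adjustment in each comparison, and the F an adjusted p under 0.05. All kept probe sets (24427) were also fitted together. The procedure was tested on simulated data. Members and lists were chosen with earlier results of these data known. Named genes were all members with all their probe sets, up to 4 called genes a list with the largest moderated t, family neighbours in the genome, and the 3 genes most correlated with each member. Marker sums use 1 probe set a gene without the filter. Alternatives were quantile normalization, pseudocounts of 12 and 190, no filter, a 75th percentile filter, the mean of probe sets, no x, s or a probe sets, all probe sets in 1 fit, label batch as a fixed or random block, no label batch 2, trended robust eBayes, and each array left out. Plots used Python 3.11.15 and matplotlib 3.10.9.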

Additional observations from a re-analysis of the deposited data

How the results depend on the processing

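No paired analysis was possible because the replicate numbers only follow accession order. Label batch, which does group some arrays across compartments, was fitted as a block instead. Of the 37 calls of single matrix genes, counting each comparison and the moderated F, 0 changed direction under the 23 alternatives. The calls of Dcn, Lum and Emilin3 in muscle against each other compartment and against the mean of the rest were kept under all 23. The number of the 9 genes called in muscle against the mean of the rest was 6 to 8 with any 1 array left out, and 6 to 8 in the remaining alternatives. Against proximal tubule it was 6 to 9 and 6 to 8, against collecting duct 3 to 4 and 3 to 4, and against urothelium 4 to 6 and 4 to 6. The counts of 6 against urothelium hold 5 genes higher and 1, Fmod, lower in muscle, and came with the 40th percentile pseudocount, with the 75th percentile filter and without urothelium replicate 3. For urothelium against proximal tubule, 5 genes were called, with 0 under label batch as a fixed block, 2 without label batch 2 and 2 to 5 without single arrays; the lower counts came without proximal tubule replicate 2 (2 genes), proximal tubule replicate 3 (3 genes) and urothelium replicate 1 (3 genes). For urothelium against collecting duct, 0 were called, with 2 at the 40th percentile pseudocount, 1 with the 75th percentile filter and 0 to 2 without single arrays (2 without urothelium replicate 3). For collecting duct against proximal tubule, 1 was called, and 0 to 1 without single arrays. The moderated F gave 8 genes, 7 without any single array, and 5 both without x, s and a probe sets and with label batch as a fixed block. Over all genes, label batch as a fixed block called 951 for muscle against the rest (2065 in the main setting), 710 against proximal tubule (2771), 302 against collecting duct (1126) and 719 against urothelium (1084), 0 for urothelium against collecting duct (35), 24 for urothelium against proximal tubule (1560) and 1322 by the F (2741). Without label batch 2 the counts were 1358 for muscle against the rest, 660 against urothelium, 8 for urothelium against collecting duct and 1029 against proximal tubule. Urothelium against collecting duct also moved to 22 and 122 at the 5th and 40th percentile pseudocounts, 58 with the 75th percentile filter, 67 with trended robust eBayes and 0 to 150 without single arrays. Without collecting duct replicate 1 or 2, 520 and 673 genes were called for muscle against collecting duct, and 366 and 358 for collecting duct against proximal tubule (795), and without proximal tubule replicate 2 the latter was 475. Urothelium against proximal tubule gave 887 without proximal tubule replicate 2 and 1010 without urothelium replicate 1. The cause of these changes was not tested. The random block had a consensus correlation of 0.0268 and left each of the 8 counts as it was. Signals near background limit the untested Eln probe set, 1420854_at, and the neighbours of the proteoglycan genes. The Eln call against the mean of the rest rests on a small difference (1.03 ± 0.31).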
